A study of Drosophila melanogaster with 27 samples.

Results

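The mitochondrial ribosomal protein genes of Drosophila melanogaster are nuclear genes for the protein subunits of the ribosome that works inside mitochondria. They were taken from the count table by name, as every gene whose FlyBase symbol begins with mRpL (large subunit) or mRpS (small subunit) followed by a digit. The rule found 71 of 15348 genes, 47 of the large subunit and 24 of the small subunit. Of these, 70 reached 1 CPM (a read count scaled to a common library size, the usual counts-per-million unit) in at least 2 libraries and were tested. The other member, mRpL53, had no read in any of the 27 libraries, and 100% of its annotated exon bases are shared with neighbouring genes (AGO1 and CG33155). The genes mRpS34 and mRpS5, which the rule would also take, were not analysed here.

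Mitochondrial ribosomes translate the few messenger RNAs of the mitochondrial genome, which encode core subunits of the respiratory chain and of ATP synthase. Their ribosomal RNAs come from the mitochondrial genome too, whereas the proteins are made in the cytosol, imported and assembled on that RNA. Low numbers in the symbols mark proteins with a counterpart in bacterial ribosomes, and higher numbers mostly mark proteins that mitochondria gained, with exceptions such as mRpS24, whose human counterpart is related to a bacterial small subunit protein. In flies, mutants of the small subunit protein gene tko (technical knockout) develop slowly and are prone to seizures.

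The libraries came from imaginal discs, the larval epithelia that form adult appendages, dissected by hand from 35 to 50 wandering third-instar larvae raised at 25 °C. Every genotype carried hh-Gal4, which drives transgenes in posterior compartment cells, and UAS-GFP, so each disc also held cells outside the driver's domain. Control discs expressed a luciferase hairpin (UAS-luc-RNAi) and were taken on day 5, with 2 libraries each from eye-antennal, leg and wing discs. Tumour discs expressed UAS-scrib-RNAi, which depletes the polarity protein Scribble, UAS-Ras[v12], an active Ras, and a luciferase hairpin (UAS-luci-RNAi). They were taken on day 9 (replicate 1) and day 11 (replicate 2) from the same 3 discs, so genotype and larval age cannot be told apart, and neither can day and dissection among tumours. The other genotypes had the tumour transgenes with another hairpin and no luciferase hairpin, in eye-antennal and leg discs. These were UAS-CG6272-TRiP[HMS00057]-RNAi against the bZIP factor CG6272 (4 libraries, day 8), UAS-sd-TRiP[JF02514]-RNAi against the Hippo pathway factor scalloped (4 libraries, day 8 with some material of day 7), UAS-tai-TRiP[GL00514]-RNAi against the steroid receptor coactivator taiman (3 libraries, day 10, on the homologue of the scrib and Ras chromosome), UAS-Stat92E-TRiP[HMS00035]-RNAi against the JAK/STAT factor Stat92E (3 libraries, day 8) and UAS-kay-TRiP[HMS00254]-RNAi against the Fos protein kayak (1 eye-antennal library, day 10). For the 2 eye-antennal libraries with sd in the title, the genotype field gives the kay hairpin. They were grouped by title, so every sd value except those of leg discs rests in part on these 2 libraries. Replicates were independent dissections.

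Each library had 11683247 to 16007581 reads assigned to genes, and a tested member had between 44 and 1439 reads in a library. Reads that did not map uniquely made up 17.6% of all reads on average in controls, 67.1% in tumours, 29.0% in CG6272, 55.1% in sd, 51.4% in tai and 49.9% in Stat92E libraries, and 61.5% in the kay library. The 14 imaginal disc marker genes measured were present in every library. Their summed level was 2222 to 3224 CPM in controls and 1501 to 2026 CPM in tumours. Fat body marker genes summed to 470 to 8496 CPM in controls and 92.2 to 328 CPM in tumours. Each library pools whole discs, so fewer cells of a type and less RNA per cell cannot be told apart.

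Levels of the genes were compared per 1000 bases of exon because longer genes collect more reads. The median member stood at 29.2 CPM per kb in control discs. The highest was mRpL12 at 58.5 CPM per kb ± 9.59 (SD, n = 6), which encodes the stalk protein that contacts translation factors. It was followed by mRpL30 at 54.9 ± 6.94, mRpS10 at 53.1 ± 4.23 and mRpL39 at 49.5 ± 5.91, and neighbours in this order differed by less than their SDs. The low end held mRpL21 at 11.2 CPM per kb ± 1.36 and mRpS24 at 6.24 ± 0.962. Those values are lower than the rest by more than their spread, the next gene up being mRpS14 at 16.7 ± 1.68. mRpS24 shares 55.3% of its exon bases with TBC1d7 on the opposite strand, so its reads cannot be assigned with certainty. mRpS14 shares 35.8% of its exon bases with other genes. Reads counted as ambiguous between genes were left out, so the levels per kb of mRpS24 and mRpS14 may be too low.

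In tumour discs most of these genes were higher than in control discs, each by a small amount. The level summed over the members was 1723 and 1666 CPM in the eye-antennal controls, 1869 and 1882 CPM in the leg controls and 2201 and 1973 CPM in the wing controls. It was 2101 and 2162 CPM in the eye-antennal tumours, 2251 and 2661 CPM in the leg tumours and 2382 and 2161 CPM in the wing tumours. Tumours stood above controls within every disc except in wing, where the lower tumour library (2161 CPM) was below the higher control library (2201 CPM). The means were 1886 CPM ± 191 (SD, n = 6) in controls and 2286 CPM ± 208 (SD, n = 6) in tumours, a ratio of 1.21.

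**Figure D1:**
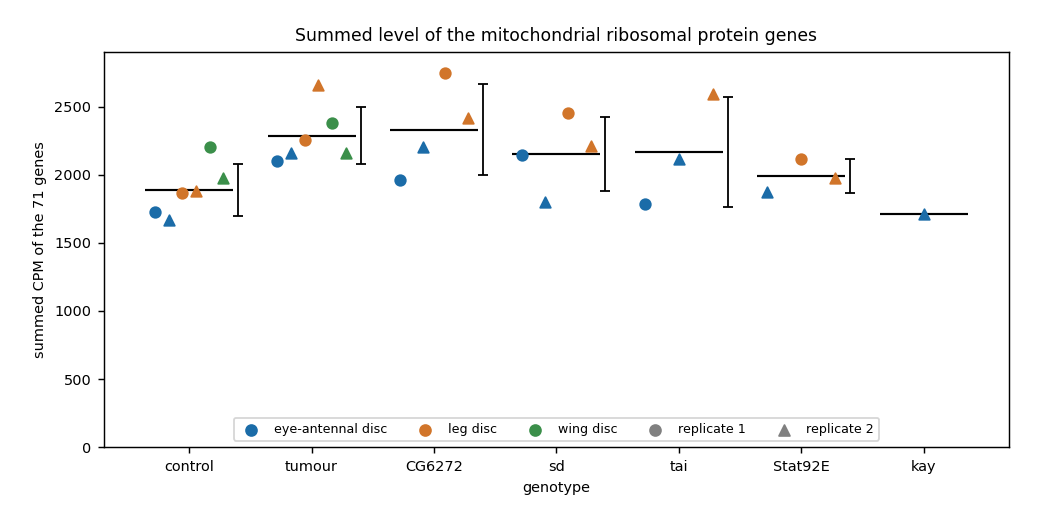
Summed level of the 71 genes (vertical axis, CPM on TMM-scaled library sizes, from 0) in each of the 27 libraries by genotype (horizontal axis). Colours mark discs, circles replicate 1 and triangles replicate 2, horizontal lines genotype means and bars ± 1 SD. Control libraries lie between 1666 and 2201 CPM and tumour libraries between 2101 and 2661 CPM.

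Averaged over the 3 discs, 43 of the 70 tested members rose in tumours and 1 fell (edgeR quasi-likelihood F-test, Benjamini-Hochberg adjusted p under 0.05 over 9814 genes). Of all genes tested, 52.8% passed, 28.3% as higher and 24.5% as lower, and the share of members that rose was 61.4%. The median change of the members was 0.27 on the log2 scale, against 0.03 for all genes tested. Every tumour library stood above every control library for 16 of the 70 members (22.9%), against 14.6% of all genes tested, and for 0 members the other way, against 12% of all genes. By symbol, 18 of 24 mRpS genes rose, and of the mRpL genes 25 of 46 rose and 1 fell. Members with numbers shared with bacterial subunits rose in 27 of 41 cases, and those with higher numbers in 16 of 29.

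**Figure D2:**
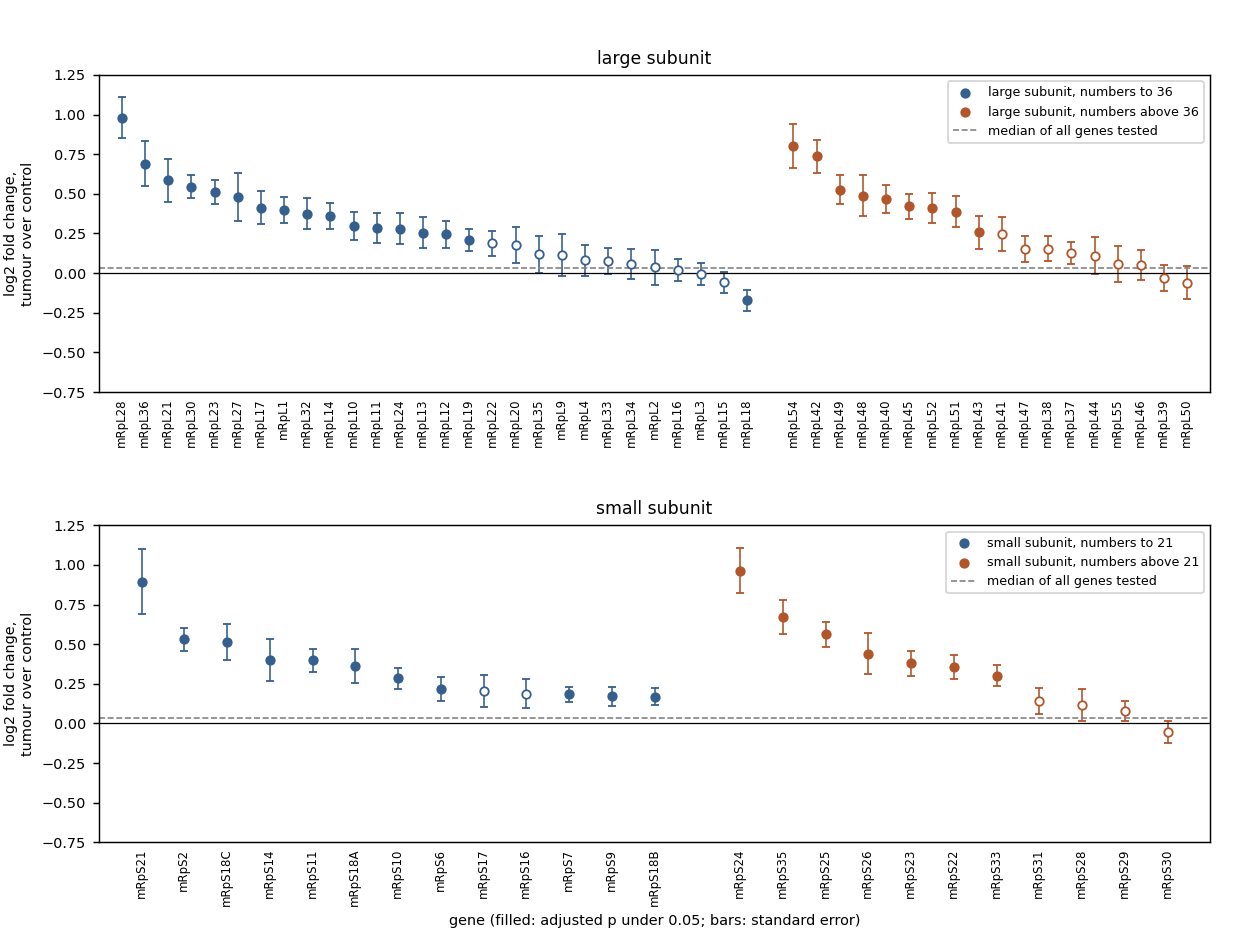
Log2 fold change of each tested member between tumour and control, averaged over the 3 discs (vertical axis), with its standard error. Genes are sorted within the large and small subunit and by number range, filled points have an adjusted p under 0.05, and the dashed line is the median of all genes tested (0.03). In the upper panel mRpL28 is highest at 0.98 and mRpL18 is the filled point below 0.

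Among the large subunit proteins with a bacterial counterpart, mRpL28 changed most. It stood at 36.95 and 35.4 CPM in eye-antennal controls, 37.9 and 39.7 CPM in leg controls and 45.4 and 36.5 CPM in wing controls. In tumours of day 9 it reached 84.7 CPM in eye-antennal, 98.9 CPM in leg and 93.3 CPM in wing discs. In tumours of day 11 it was 52.9, 62.6 and 65.8 CPM in the same order of discs. The highest control library was thus below the lowest tumour library (log2 fold change 0.98, SE 0.13, adjusted p = 1.27e-05), and day 9 stood above day 11 in each disc. Without the tumour libraries of day 9 the change was 0.64 (adjusted p = 1.48e-05). The gene lies on chromosome arm 2L and shares 1.45% of its exon bases with Gmd on the opposite strand.

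Other members of that class rose less. mRpL36 ranged from 9.54 to 12.9 CPM in controls (median 11.3) and from 14.7 to 21.7 CPM in tumours (median 17.1), without overlap (log2 fold change 0.69, SE 0.14, adjusted p = 7.44e-04). mRpL21 ranged from 16.97 to 23.5 CPM in controls (median 18.2) and from 23.05 to 40.1 CPM in tumours (median 25.5), with wing control replicate 1 above the lowest tumour library (log2 fold change 0.58, SE 0.14, adjusted p = 0.00201). mRpL30 rose from 38.2 CPM ± 4.83 to 55.4 ± 4.43 (SD, n = 6; log2 fold change 0.54, SE 0.07, adjusted p = 1.94e-05). mRpL1, which forms the side stalk by the exit site of bacterial ribosomes, and mRpL23, at the mouth of the peptide exit tunnel, rose by 0.40 and 0.51 on the log2 scale. mRpL12 rose by 0.25 (SE 0.09, adjusted p = 0.0260). mRpL2 and mRpL3, core proteins at the heart of the large subunit, had changes of 0.04 (adjusted p = 0.812) and -0.01 (adjusted p = 0.952).

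Large subunit genes with higher numbers gave 9 of 18 rises. mRpL54 ranged from 9.22 to 18.5 CPM in controls (median 11.6) and from 16.2 to 25.1 CPM in tumours (median 20.5). Its groups overlapped through wing control replicate 1, at 18.5 CPM (log2 fold change 0.80, SE 0.14, adjusted p = 1.81e-04). mRpL42 ranged from 15.6 to 23.97 CPM in controls (median 17.9) and from 26.4 to 37.2 CPM in tumours (median 29.3), without overlap (log2 fold change 0.74, SE 0.10, adjusted p = 2.69e-05). mRpL45, whose mammalian counterpart anchors the ribosome to the inner membrane, rose from 35.7 CPM ± 5.12 to 47.5 ± 4.55 (SD, n = 6; log2 fold change 0.42, SE 0.08, adjusted p = 4.56e-04), with wing control replicate 1 above the lowest tumour library. mRpL39 and mRpL50 had changes of -0.03 and -0.06, with adjusted p = 0.797 and 0.657.

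Among mRpS genes, 11 of 13 with numbers shared with bacteria rose and 7 of 11 with higher numbers rose. mRpS21 ranged from 12.7 to 18.2 CPM in controls (median 16.1) and from 19.1 to 48.9 CPM in tumours (median 26.97), without overlap (log2 fold change 0.89, SE 0.21, adjusted p = 0.00192). It shares 48% of its exon bases with CG8870 on the opposite strand, so its count over those bases is uncertain. mRpS35 ranged from 24.7 to 30.2 CPM in controls (median 27.99) and from 37.02 to 54.9 CPM in tumours (median 43.2), without overlap (log2 fold change 0.67, SE 0.11, adjusted p = 8.52e-05). mRpS25 ranged from 17.7 to 21.7 CPM in controls (median 19.9) and from 26.6 to 33.5 CPM in tumours (median 28.6), again without overlap (log2 fold change 0.56, SE 0.08, adjusted p = 2.79e-05). mRpS24 had the second highest change of the family (log2 fold change 0.96, SE 0.14, adjusted p = 3.91e-05), at 3.75 CPM ± 0.577 in controls and 7.27 ± 0.889 in tumours (SD, n = 6), with the overlap given above. mRpS2 and mRpS11, which have bacterial counterparts, rose by 0.53 and 0.40. mRpS29, the fly DAP3, a GTP-binding subunit, and mRpS30 had changes of 0.08 (adjusted p = 0.343) and -0.05 (adjusted p = 0.539).

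The 1 member called lower was mRpL18, whose bacterial counterpart binds 5S ribosomal RNA. It stood at 18.8 and 18.7 CPM in eye-antennal, 19.2 and 20.2 CPM in leg and 23.1 and 23.2 CPM in wing controls. In tumours it stood at 18.3 and 17.2 CPM in eye-antennal, 18.6 and 20.9 CPM in leg and 16.2 and 17.7 CPM in wing discs. The groups overlapped in leg discs and did not in the other discs, and the mean change was -0.17 (SE 0.07, adjusted p = 0.0404). The call ended without any 1 of the 6 control libraries, and without 4 of the 6 tumour libraries in turn (eye-antennal replicates 1 and 2, leg replicate 1 and wing replicate 1).

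**Figure D3:**
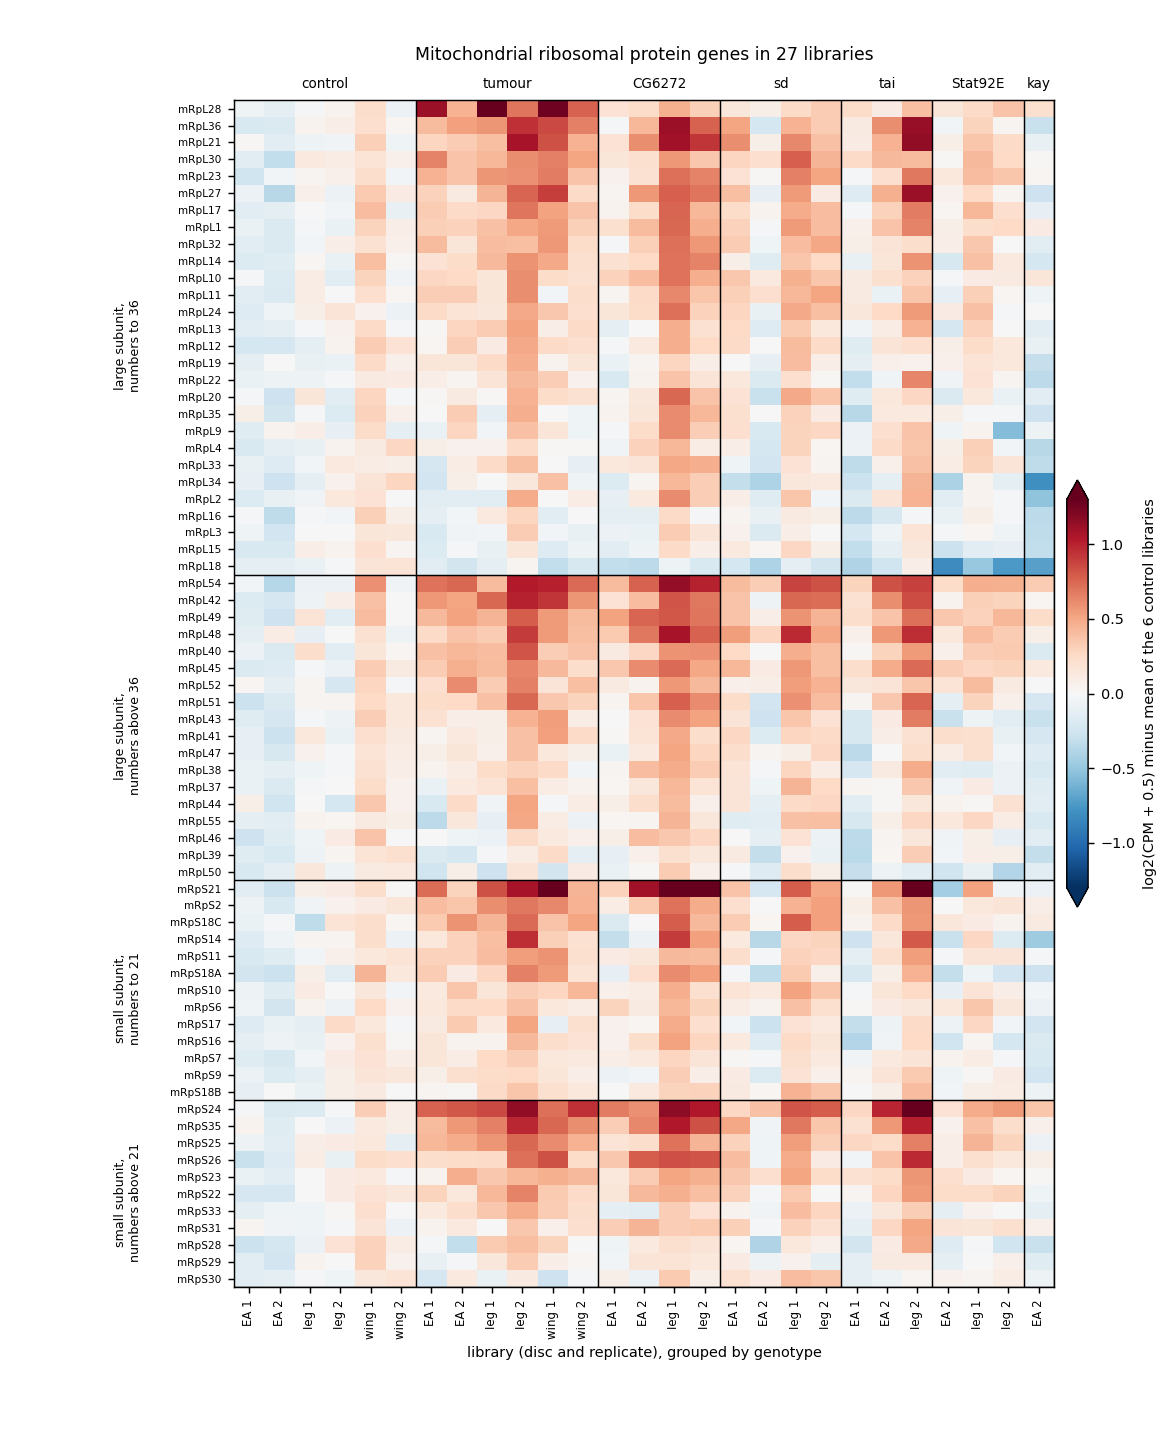
Level of the 70 tested members (rows, sorted by tumour change within subunit and number range) in the 27 libraries (columns), as log2(CPM + 0.5) minus the mean of the 6 control libraries. Values beyond the ends of the colour scale take the end colours. The mRpL28 row is darkest in tumours of day 9 (replicate 1), and the mRpL18 row is blue in Stat92E and kay.

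Exon length moved with the result. Members are short, from 327 to 2078 exon bases, and short genes were on average higher in tumours. Of 4531 other tested genes in that length range, 31.7% rose and 17.7% fell, with a median change of 0.13 against 0.27 for the members. Under 800 bases 69.2% of 39 members rose against 30.3% of 795 other genes, with medians of 0.36 and 0.26. At 800 bases and over 51.6% of 31 members rose against 32% of 3736 other genes, with medians of 0.17 and 0.11. With the trend of expression on exon length taken out of every library, 21 members rose (30%, against 25.9% of all genes in that fit) and 9 fell (12.9%, against 29%), and the median change was 0.04 against -0.03 for all genes tested. In that fit the rises of mRpL28 (0.82, SE 0.14), mRpS35 (0.51, SE 0.07), mRpL42 (0.47, SE 0.06) and mRpL54 (0.56, SE 0.10) and the fall of mRpL18 (-0.39, SE 0.06) still passed.

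**Figure D4:**
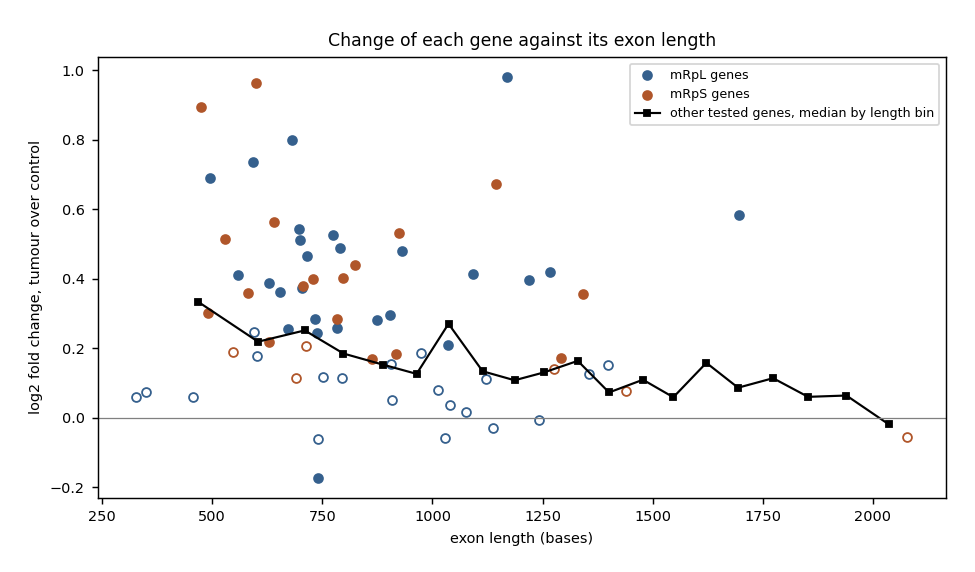
Log2 fold change of each tested member between tumour and control (vertical axis) against its exon length in bases (horizontal axis). Filled points have an adjusted p under 0.05, and squares joined by a line are medians of the other tested genes in 20 bins of length. The line falls from 0.33 at 468 bases to -0.02 at 2036 bases.

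How far the count of 43 depends on the model and the libraries was also measured. A fit with the dissection as a random block called 22 members higher (31.4%, against 19.2% of all genes in that fit) and 0 lower, with mRpS21 and mRpL21 no longer called (adjusted p = 0.0700 and 0.0606). Without the 2 control libraries with over 5000 CPM of fat body markers, 38 rose and 0 fell. Without the tumour libraries of day 9 the counts were 38 higher and 0 lower, and without those of day 11 they were 28 higher and 3 lower. The share of all genes called in the fits with libraries left out is not given here. Those counts therefore do not separate the members from the fit as a whole. Of the 43 members, 16 were called higher under each of 13 alternative settings and with each of the 27 libraries left out. These were mRpL1, mRpL23, mRpL28, mRpL30, mRpL36, mRpL40, mRpL42, mRpL45, mRpL49, mRpL54, mRpS2, mRpS11, mRpS22, mRpS24, mRpS25 and mRpS35. How many of all the genes that rose stayed higher in the same fits was not counted, so this list does not set the members apart. A separate setting, outside the 13, did not count members sharing 20% or more of their exon bases. It leaves out mRpS24, at 55.3%.

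The change was also read disc by disc. In eye-antennal discs 22 of 70 rose and 0 fell, against 17.1% higher and 12.1% lower among all genes (29.2% called), with a median change of 0.34. In leg discs 31 rose and 0 fell, against 19.7% higher and 18.6% lower (38.3% called), with a median change of 0.36. In wing discs 10 rose and mRpL18 fell, against 16.3% higher and 14.1% lower (30.4% called), with a median change of 0.10, and the share of members that rose there, 14.3%, was near the background. With the dissection as a random block 7.14% of members were higher in wing discs, against 12.4% of all genes. mRpL28 rose in each disc, by 0.92 in eye-antennal (SE 0.22, adjusted p = 0.00564), 1.06 in leg (SE 0.22, adjusted p = 0.00172) and 0.96 in wing discs (SE 0.22, adjusted p = 0.00437). Without the tumour library of day 9 (replicate 1) of the disc, the change was 0.55 in eye-antennal (adjusted p = 0.103), 0.69 in leg (adjusted p = 0.0337) and 0.68 in wing discs (adjusted p = 0.0661), so the eye-antennal and wing calls ended. The wing call also ended without wing control replicate 2 (adjusted p = 0.0556). In wing discs mRpL18 fell by 0.45 on the log2 scale (SE 0.12, adjusted p = 0.00873), a call that ended without wing control replicate 2 or wing tumour replicate 1 (adjusted p = 0.056 and 0.0756). There mRpS21 rose by 1.04 (SE 0.36, adjusted p = 0.0381), but without wing tumour replicate 1 its change was 0.32 (adjusted p = 0.558), and the call also ended without either wing control library.

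A difference of the tumour change among discs was called for 0 of 70 members, against 3.28% of all genes. With edgeR 5 members had an unadjusted p under 0.05, and DESeq2 and limma-voom also called 0. With the dissection as a random block limma-voom called 1. The counts by disc rest on 2 libraries a group. Without eye-antennal control replicate 1 or 2, or tumour replicate 2, the eye-antennal count was 11, 6 or 7. The leg count was 14 or 17 without leg control replicate 1 or 2, and 7 without leg tumour replicate 2. The wing count was 7 or 0 without wing control replicate 1 or 2, and 0 without wing tumour replicate 1.

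Among control discs, mRpS7, a protein of the small subunit's head, was called in a joint test of the 3 discs (adjusted p = 0.0340). It stood at 38.2 and 36.8 CPM in eye-antennal, 41.7 and 45.95 CPM in leg and 48.7 and 45.4 CPM in wing discs, lowest in eye-antennal discs. It was 1 of 70 members, against 11.8% of all genes, and the call ended without any 1 of the eye-antennal or wing controls or without eye-antennal tumour replicate 2. Among tumour discs 0 of 70 members were called, against 8.23% of all genes, with 3 at an unadjusted p under 0.05 in edgeR and 0 called by DESeq2 or limma-voom. A limma-voom fit with the dissection as a random block did call members among tumour discs, and called more among control discs than the main fit. Those counts are given at the end, without the share of all genes beside them.

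Between tumours of day 11 and day 9, 2 members were higher and 1 was lower, 3 of 70 against 12.3% of all genes (4.49% higher and 7.83% lower). mRpL28 fell by 0.61 on the log2 scale (SE 0.08, adjusted p = 2.15e-04) and was lower on day 11 in each of the 3 discs. mRpS30, whose mammalian counterpart sits in the large subunit, stood at 66.8, 72.98 and 64.4 CPM on day 9 and at 84.8, 83.98 and 76.2 CPM on day 11, in eye-antennal, leg and wing discs. The days did not overlap, and the gene was higher on day 11 (log2 fold change 0.26, SE 0.07, adjusted p = 0.0219). mRpL50 stood at 15.8, 15.6 and 15.97 CPM on day 9 and at 20.1, 21.3 and 20.4 CPM on day 11, also without overlap (log2 fold change 0.38, SE 0.11, adjusted p = 0.0336). Without any 1 of 4 tumour libraries (eye-antennal replicates 1 and 2, leg replicates 1 and 2) this count was 1, and without CG6272 leg replicate 2 it was 5. The mRpS30 and mRpL50 calls were each lost without any 1 of the 6 tumour libraries. Tracheal marker genes, 4 measured, summed to between 1561 and 5262 CPM in tumours, and all 3 libraries of day 9 were above those of day 11. Their part in the result was not tested.

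The hairpin genotypes were each compared with tumours and with controls of the same discs. These comparisons share the tumour and the control libraries, so their values are given side by side and not as independent results. Column names of the CG6272, Stat92E and kay counts carry a suffix that those of controls, tumours, sd and tai lack. The S numbers in the names repeat between these sets and not within either. What the suffix marks is not given in the sources used here. For CG6272, Stat92E and kay, hairpin and suffix cannot be told apart, and the part of the suffix was not tested. Every hairpin genotype was also taken on other days than tumours and controls, and lacked the luciferase hairpin. In none of them can the hairpin be told apart from larval age or the missing luciferase hairpin. Summed levels were 1958 to 2743 CPM in CG6272 (mean 2330 CPM ± 333, SD, n = 4), 1796 to 2450 CPM in sd (2150 CPM ± 270, n = 4), 1786 to 2589 CPM in tai (2164 CPM ± 404, n = 3) and 1871 to 2117 CPM in Stat92E (1988 CPM ± 123, n = 3). The kay library was at 1711 CPM. With wing controls counted, the CG6272, sd and tai ranges overlapped both controls and tumours, and the Stat92E libraries lay within the control range. The highest Stat92E library was also above the lowest tumour library. No hairpin genotype has wing libraries. Within discs, every CG6272, sd, tai and Stat92E library lay above the controls, and every Stat92E library lay below the tumours. The kay library lay between the eye-antennal controls.

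Against tumours, CG6272 had 0 members higher and 1 lower, where 14.2% of all genes were called (5.33% higher and 8.92% lower). In sd 1 was higher and 2 were lower, against 21.3% of all genes (9.26% higher and 12% lower). In tai 0 were called, against 2.72% of all genes (0.978% higher and 1.74% lower). For tai, 3 members had an unadjusted p under 0.05 in edgeR, DESeq2 called 1 and limma-voom 0. The median changes were 0.04 in CG6272, -0.10 in sd and -0.03 in tai. Stat92E had 10 members lower and 0 higher, against 6.78% lower and 6.5% higher of all genes (13.3% called), with a median change of -0.24 against -0.03 for all genes. Other genes in the members' range of exon length had a median of -0.10 in Stat92E. With the dissection as a random block 2 members were lower (2.86%), against 3.98% of all genes. The kay library had 0 calls, against 0.183% of all genes (0.0713% higher and 0.112% lower), and 0 by DESeq2 or limma-voom. Its median change was -0.32, against -0.03 for all genes and -0.19 for other genes in the members' length range. Under 800 exon bases the medians were -0.39 for members and -0.36 for other genes.

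mRpL28 was the member lower in 3 of these comparisons. In eye-antennal discs it stood at 43.8 and 45.5 CPM in CG6272, 42.7 and 40.6 CPM in sd, 45.7 and 41.5 CPM in tai, 42.97 CPM in Stat92E and 44.6 CPM in kay. In leg discs it stood at 53.3 and 47.98 CPM in CG6272, 45.8 and 48.5 CPM in sd, 50.8 CPM in tai and 45.7 and 49.98 CPM in Stat92E. In both discs these libraries were below the tumour libraries of the same disc and above the controls. Against tumours it fell by 0.65 on the log2 scale in CG6272 (SE 0.15, adjusted p = 0.0116), by 0.75 in sd (SE 0.16, adjusted p = 0.00393) and by 0.72 in Stat92E (SE 0.18, adjusted p = 0.0162). The values in tai (log2 fold change -0.66, adjusted p = 0.0621) and kay (-0.62, adjusted p = 0.342) did not pass. Against controls the changes were 0.34, 0.24, 0.33, 0.28 and 0.30 in CG6272, sd, tai, Stat92E and kay, with adjusted p from 0.0859 to 0.527. The CG6272 and Stat92E calls each ended without eye-antennal or leg tumour replicate 1, both of day 9 (in Stat92E -0.53 without either, adjusted p = 0.0630 and 0.0588). Without all tumour libraries of day 9 the changes against tumours were -0.27 in CG6272 (adjusted p = 0.0844), -0.38 in sd (adjusted p = 0.0182) and -0.34 in Stat92E (adjusted p = 0.0492). Against Stat92E libraries in place of tumours, the change in CG6272 was 0.07 (adjusted p = 0.858).

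**Figure D5:**
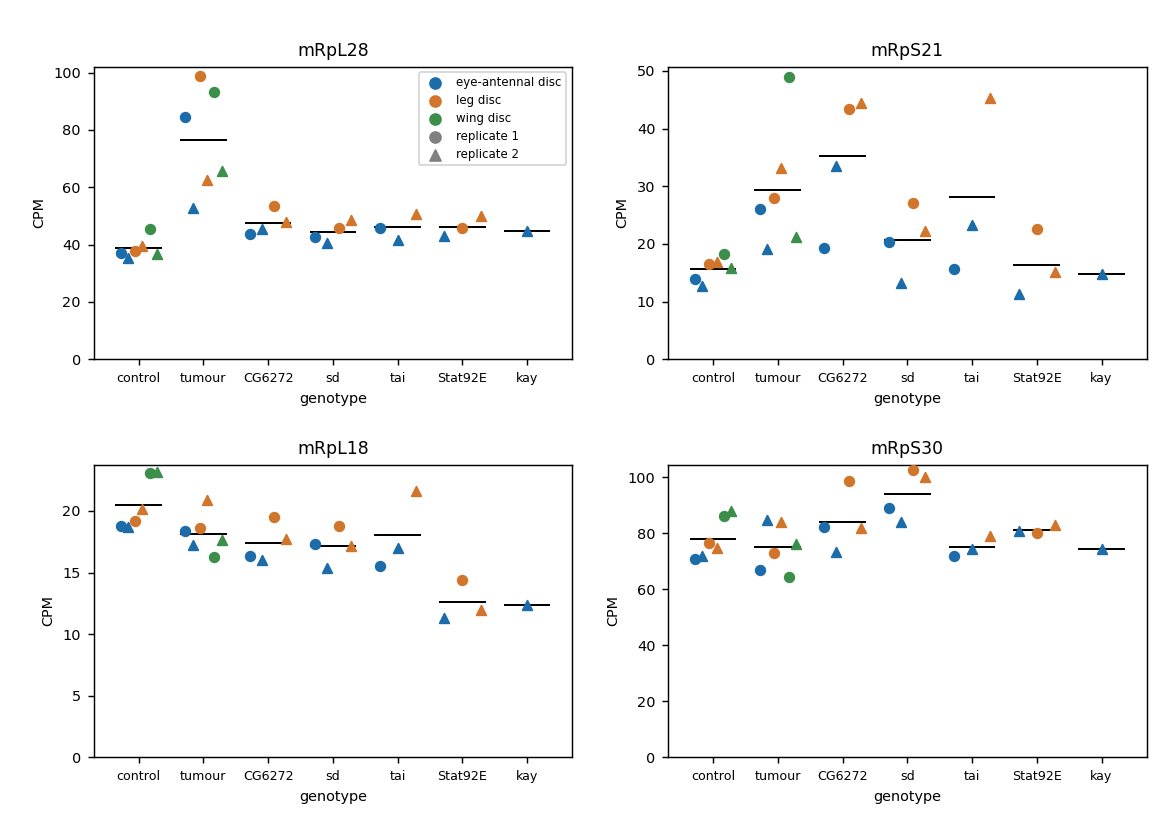
CPM (vertical axes, from 0) of mRpL28, mRpS21, mRpL18 and mRpS30 in each of the 27 libraries by genotype (horizontal axes), with colours for discs, circles for replicate 1, triangles for replicate 2 and lines for genotype means. In the mRpL28 panel the tumour libraries of day 9 (circles) stand at 84.7 to 98.9 CPM. In the mRpL18 panel the Stat92E and kay libraries are the lowest, at 11.3 to 14.4 CPM.

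mRpL18 was the other member that stood apart in a hairpin genotype. In Stat92E it stood at 11.3 CPM in the eye-antennal and 14.4 and 11.97 CPM in the leg libraries, and in kay at 12.4 CPM. Those 4 libraries were the lowest of the 27, where the others lay between 15.3 and 23.2 CPM. All 4 carry the column suffix named above, as the CG6272 libraries do. In Stat92E it fell by 0.62 on the log2 scale against tumours (SE 0.09, adjusted p = 9.00e-04) and by 0.65 against controls (SE 0.09, adjusted p = 1.32e-04). In kay it fell by 0.60 against the eye-antennal controls (SE 0.14, adjusted p = 0.0136), a call lost without either of them, and the value against tumours was -0.52 (adjusted p = 0.165). The kay group is 1 library, which the fit assumes to vary like the other groups. In CG6272, sd and tai the changes against tumours were -0.11, -0.13 and 0.00, with adjusted p of at least 0.281.

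The other members lower in Stat92E than in tumours were mRpS2 (-0.45, adjusted p = 0.00917), mRpS18A (-0.59, adjusted p = 0.0182), mRpS33, mRpL42, mRpL30, mRpS35, mRpS14 and mRpS11, with changes from -0.59 to -0.32. Of these mRpS14 stood at 10.8 CPM in the eye-antennal and 16.02 and 11.6 CPM in the leg libraries, against 14.6 and 16.4 CPM in eye-antennal and 17.6 and 26.2 CPM in leg tumours (adjusted p = 0.0475). This call was lost in 17 of the 27 fits with 1 library left out (adjusted p up to 0.151), and the gene's 35.8% of shared exon bases make its reads uncertain. The count of 10 fell to 3 without eye-antennal tumour replicate 1, leg tumour replicate 2 or Stat92E leg replicate 2. It fell to 5 without Stat92E leg replicate 1 and to 6 without eye-antennal tumour replicate 2. Without the Stat92E eye-antennal library, a comparison of leg discs alone, it was 6. It was also 6 without leg control replicate 1 or 2 or wing control replicate 2, which enter the fit through the shared spread. Fitted on the compared libraries alone it was 0. With the length trend taken out it was 7.

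In sd, mRpS30 stood at 89.1 and 83.9 CPM in the eye-antennal libraries, whose genotype label names kay, and at 103 and 99.9 CPM in the leg libraries. It was higher than in tumours (log2 fold change 0.28, SE 0.08, adjusted p = 0.0275), a call that ended without the tumour libraries of day 9 (0.15, adjusted p = 0.250). mRpS25 was lower in sd than in tumours (log2 fold change -0.28, SE 0.10, adjusted p = 0.0487). The mRpS25 call was lost in 19 of the 27 fits with 1 library left out (adjusted p up to 0.190), and that of mRpS30 in 5 of 27. With the leg libraries as the only sd libraries, the change of mRpS30 was 0.37 (adjusted p = 0.0480) and that of mRpL28 -0.77 (adjusted p = 0.0274). Of the 3 calls in sd 1 was left without eye-antennal or leg tumour replicate 1, or without sd leg replicate 1 or 2.

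Against controls, the share of members called higher was above that of all genes in CG6272, sd and tai, and below it in Stat92E and kay. In CG6272 46 of 70 rose and 0 fell, against 23.2% higher and 20.5% lower among all genes (43.7% called), with a median change of 0.37. In sd 30 rose and 0 fell, against 16.5% higher and 14.8% lower (31.3% called), with a median of 0.26. In tai 33 rose and 0 fell, against 18.9% higher and 15.2% lower (34.1% called), with a median of 0.30. In Stat92E 4 rose (mRpL49, mRpL45, mRpS22 and mRpL23) and mRpL18 fell, against 15% higher and 11.7% lower (26.7% called), with a median of 0.14, and 5.71% of the members were called higher. In kay 0 rose and mRpL18 fell, against 7.9% higher and 4.94% lower (12.8% called), with a median of -0.00. The Stat92E count was 1 without its eye-antennal library, a comparison of leg discs alone. It was 3 without Stat92E leg replicate 2, eye-antennal control replicate 2 or leg control replicate 1, and 9 fitted on the compared libraries alone. With dissection as a random block, 41.4% of members were higher in CG6272, 14.3% in sd, 22.9% in tai and 0% in Stat92E and kay. Of all genes in that fit, 16.2%, 11.1%, 13.5%, 10.1% and 8.14% were higher in the same order. The sd share was then close to that of all genes.

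In CG6272 mRpS21 stood at 19.3 and 33.5 CPM in eye-antennal and 43.4 and 44.4 CPM in leg libraries, each above the controls of its disc (log2 fold change 1.19, SE 0.25, adjusted p = 0.00153). mRpL54 stood at 16.2 and 20.8 CPM in eye-antennal and 27.3 and 24.7 CPM in leg libraries (log2 fold change 1.00, SE 0.17, adjusted p = 2.63e-04). mRpS26, which stood at 36.4 and 49.3 CPM in eye-antennal and 51.2 and 50.5 CPM in leg libraries, had a change of 0.83 (SE 0.16, adjusted p = 7.21e-04). The 6 larval muscle markers measured, of which 5 rose in CG6272 and 0 were at 0 in any library, summed to 127 to 1294 CPM in CG6272 and 75.5 to 162 CPM in controls. With leg replicate 2, the CG6272 library lowest in them (127 CPM), as the only CG6272 library, 14 members were called, in a fit that takes the spread from other groups and has fewer libraries to make calls with. The part of the muscle markers in the result was not tested.

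In sd mRpL54 was higher than in controls by 0.77 (SE 0.17, adjusted p = 0.00302), mRpL48 by 0.63 (SE 0.16, adjusted p = 0.00717) and mRpL42 by 0.56 (SE 0.13, adjusted p = 0.00376). With the leg libraries, whose title and genotype label both name sd, as the only sd libraries, 18 members were called. The sd count was 15 without sd eye-antennal replicate 1, 18 without sd leg replicate 1, 17 without eye-antennal control replicate 2 and 19 without leg control replicate 1. Eye-antennal replicate 2 of sd had 11863 CPM of fat body markers, against 40.0 to 278 CPM in the other 3 sd libraries.

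In tai mRpS21 stood at 15.7 and 23.2 CPM in eye-antennal discs and at 45.3 CPM in the leg library (log2 fold change 1.00, SE 0.27, adjusted p = 0.0114). mRpL54 and mRpL36 were higher than in controls by 0.90 and 0.85 (adjusted p = 0.00177 and 0.00310). Without the leg library 6 members were called, but the comparison was then of eye-antennal discs alone. In eye-antennal discs alone mRpS21 was at 0.55 (adjusted p = 0.321) and mRpL36 at 0.60 (adjusted p = 0.101), so both calls ended. Larval muscle markers summed to 195 to 2725 CPM in tai, with 4 of 6 higher than in controls, and their part in the result was not tested.

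With the length trend taken out, CG6272 had 23 members higher (32.9%, against 20.5% of all genes in that fit) and 2 lower (2.86%, against 23.3%) than controls. In sd 17 were higher (24.3%, against 15.4%) and 1 was lower (1.43%, against 18.7%). In tai 20 were higher (28.6%, against 17.6%) and 3 lower (4.29%, against 18.7%). In Stat92E 5 were higher (7.14%, against 14.5%) and 4 lower (5.71%, against 15.7%). The medians were then 0.12, 0.12, 0.09 and 0.03. The members called higher were followed through 11 alternative settings in CG6272, 12 in sd and 11 in tai, and with each of the 27 libraries left out. The fit with CG6272 leg replicate 2 alone was not among these settings. The matching counts over all genes were not made. In all these fits 19 of 46 members in CG6272, 8 of 30 in sd and 6 of 33 in tai stayed higher. mRpL45, mRpL49, mRpL54 and mRpS24 were among them in each of these 3 genotypes.

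The members varied together from library to library. Over the 27 libraries the median Pearson correlation between 2 members was 0.70 on the log2 scale, against -0.00 between all genes tested, and 99.8% of member pairs were above 0. These points share library depth, disc and genotype, so the values describe the libraries and carry no test. The highest summed levels were in leg libraries, at 2743 CPM in CG6272 replicate 1, 2661 CPM in tumour replicate 2 and 2589 CPM in tai replicate 2.

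Genes that act with the mitochondrial ribosome were also counted between tumour and control, averaged over discs, where 28.3% of all genes rose and 24.5% fell. Its 3 subunit genes under other names rose, tko (small subunit decoding centre) by 0.45 (SE 0.09, adjusted p = 4.18e-04), CG6094 by 0.28 (SE 0.10, adjusted p = 0.0366) and bonsai (small subunit) by 0.21 (SE 0.07, adjusted p = 0.0182). Of 9 translation factor genes 4 rose (44.4%) and 0 fell, with a median of 0.23. They were mEFTu1, which brings aminoacyl-tRNAs to the ribosome, by 0.54 (SE 0.06, adjusted p = 2.48e-06), mEFTu2 by 0.42 (SE 0.06, adjusted p = 1.41e-05), the elongation factor mEFG1 by 0.42 (SE 0.08, adjusted p = 3.45e-04) and mEFTs by 0.30 (SE 0.06, adjusted p = 8.82e-04). Of 7 genes of assembly and RNA modification 3 rose (42.9%) and 0 fell, with a median of 0.21, led by mTerf3 at 0.50 (SE 0.06, adjusted p = 1.08e-05).

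Charging of transfer RNAs, protein import and upkeep of the mitochondrial genome were read from other groups. Of 14 mitochondrial aminoacyl-tRNA synthetase genes 3 rose (21.4%, below the share of all genes) and 1 fell (median 0.07), among them LeuRS-m at 0.51 (SE 0.09, adjusted p = 1.67e-04) and TrpRS-m at -0.35 (SE 0.07, adjusted p = 6.40e-04). Of 8 import genes 4 rose (50%) and 0 fell (median 0.27), Tim8 by 0.50 (SE 0.07, adjusted p = 2.70e-05), Tom20, Tom70 and Tom7. Of 7 genes of mitochondrial transcription and genome maintenance 3 rose (42.9%) and 1 fell (median 0.12), mtDNA-helicase by 0.82 (SE 0.09, adjusted p = 2.50e-06) and mtSSB by 0.41 (SE 0.06, adjusted p = 4.21e-05), while TFAM, which packages the mitochondrial genome, was at -0.25 (SE 0.08, adjusted p = 0.0170).

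The subunits of the cytosolic ribosome and of the respiratory chain served as comparison groups. Of 83 cytosolic ribosomal protein genes 7 rose (8.43%) and 12 fell (14.5%), with a median of -0.05. Of 65 nuclear oxidative phosphorylation genes 15 rose (23.1%) and 4 fell (6.15%), with a median of 0.09. The difference between these groups and the mitochondrial ribosomal protein genes was not tested. Among 7 known regulators of ribosome genes 1 rose, 2 fell and 4 did not pass. Myc rose by 0.81 (SE 0.08, adjusted p = 7.76e-07), and Mnt, which opposes Myc, and Dref, a promoter factor of growth genes, fell, at -0.72 (SE 0.10, adjusted p = 1.96e-05) and -0.43 (SE 0.05, adjusted p = 1.05e-05).

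Reads of the mitochondrial genome itself were few outside the controls. Of its 37 genes 6 were tested, and 5 of these were lower in tumours (mt:ND5, mt:ND4, mt:CoIII, mt:ND1 and mt:CoI). mt:CoIII stood at 158 to 236 CPM in the 6 controls and at 0.144 to 1.68 CPM in the 21 other libraries, without overlap. The large ribosomal RNA mt:lrRNA stood at 2.20 to 3.18 CPM in controls and 1.23 to 4.06 CPM in tumours, and mt:srRNA had 0 reads in every library. The share of alignments counted as not unique was on average lower in controls than in the other genotypes, and its part in these values was not tested.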

How the data were processed

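RNA sequencing of 27 libraries was analysed from the table of read counts per gene that the authors deposited. Alignment with TopHat2 to dm3 and counting with HTSeq are named per the submitters' processing notes, with versions not given in the sources used here. The deposited counts are raw whole reads, without normalization. Whether counting used strand is not given in the sources used here. HTSeq's summary lines, among them that of alignments not unique, were left out of library sizes and tests.

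The 9814 of 15348 genes that reached 1 CPM in 2 or more libraries were tested with edgeR 4.0.16 (TMM normalization, robust quasi-likelihood F-test) on 15 group means of genotype and disc, with 12 residual degrees of freedom. P-values were adjusted by Benjamini-Hochberg over all genes tested. The common biological coefficient of variation was 0.283. Printed CPM are scaled to the TMM-adjusted library size. Standard errors were derived from F, as the size of the log2 change over its square root. Fits were tested on simulated data. Alternatives were other scalings and filters, DESeq2 1.42.0, limma-voom (limma 3.58.1), blocks, and leaving out each library. R was 4.3.3 and Python 3.11.15. Symbols, exon lengths and exon overlaps came from Ensembl 115 (BDGP6.54), whose build differs from that of the files, so no coordinates are given. A planned promoter motif search was not run, since no promoter sequence was used here.

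Same-numbered libraries did not deviate together in every pair. The median correlation was 0.19 over 8 pairs of discs of 1 genotype (-0.07 to 0.50) and -0.06 over 21 pairs of genotypes within a disc. The number was not used as a pairing in the main fit. Replicates were independent dissections of pooled larvae. Among tumours the spread between replicates also holds the difference between day 9 and day 11. Discs that share a genotype and replicate number were fitted as independent libraries, and the SDs over 6 libraries count them so too. The alternative took the dissection as a random block, with a correlation of 0.442. It called 22 members higher in tumours, against 43 in the main fit. The tumour disc pairs correlated at 0.14, 0.16 and 0.50.

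The members and gene lists were chosen with earlier results of these data known. Named members were the largest called changes among members averaging 10 CPM or more, up to 8 each way between tumour and control with discs separated, and up to 3 each way elsewhere, the ends of the level order, and members called among discs. Further members were named for their role after their values were seen. The threshold was an adjusted p of 0.05.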

Additional observations from a re-analysis of the deposited data

Results flagged for a closer look

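In 5 of 96 groups of 4 to 6 libraries tested, 1 library stood apart from the others, and chance gives about 1 in 20. In control libraries mRpL21 was 23.5 CPM in wing replicate 1, against 16.98 to 19.1 CPM in the others. In the same library mRpL54 was 18.5 CPM, against 9.22 to 11.7 CPM in the other controls. In tumour libraries leg replicate 2 stood highest for mRpL49, at 36.9 CPM against 28.3 to 31.2 CPM, and for mRpS14, at 26.2 CPM against 14.6 to 17.6 CPM. In CG6272 libraries mRpS26 was lowest in eye-antennal replicate 1, at 36.4 CPM against 49.3 to 51.2 CPM.

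In 4 members (mRpL15, mRpL16, mRpL33 and mRpL4) the tumour libraries lay above the controls in 1 disc and below them in another without overlap, but the test of a difference among discs did not pass (edgeR adjusted p from 0.22 to 0.56).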

How the results depend on the processing

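Counts are of members called, both directions together unless said otherwise. The share of all genes called in the same fit is not printed beside them, so they do not show a change particular to the members. Without the tai leg library or the Stat92E eye-antennal library only the other disc was compared. Between tumour and control, averaged over discs, 32 to 47 were called with 1 library left out (32 to 47 raised, 0 to 1 lowered). Left-out ranges were 6 to 24 in eye-antennal, 7 to 36 in leg and 0 to 12 in wing discs. Against tumours they were 0 to 1 in CG6272, 1 to 3 in sd, 0 to 1 in tai, 3 to 13 in Stat92E and 0 in kay. Against controls they were 32 to 48, 15 to 32, 6 to 35, 1 to 7 and 0 to 2 in the same order. They were 0 to 1 among control discs, 0 among tumour discs, 0 for a difference of the tumour change among discs and 1 to 5 between days. The replicate block gave 43 members between tumour and control, 45 for CG6272 and 30 for tai against controls and 7 for Stat92E against tumours. Across genotypes the replicate numbers pair nothing in the labels. Among tumours they go with the day, day 9 for replicate 1 and day 11 for replicate 2.

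With DESeq2 size factors kay against control gave 2. Library size alone gave 0 lowered in tumours, 1 for tai and 5 for Stat92E against tumours, 9 for Stat92E and 0 for kay against controls, 0 among control discs and 13 between days. It shifted the median of all genes by 0.16 in wing discs, 0.12 between days and 0.11 in kay against control. With no count filter 0 were lowered, wing gave 7, Stat92E against tumours 5 and control discs 0. A minimum of 5 CPM gave 2 for CG6272 against tumours and 2 for kay against controls. The DESeq2 test gave 1 for tai and 19 for Stat92E against tumours and 2 for kay against controls, and limma-voom gave 0 among control discs. The dissection as a random block (correlation 0.442) gave 22 called, 22 raised and 0 lowered in tumours, 7 in wing discs, 29, 10, 16 and 1 for CG6272, sd, tai and Stat92E against controls, 2 for Stat92E against tumours, 1 for a difference among discs, 9 among control discs and 2 among tumour discs.

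The compared libraries alone gave 0 lowered in tumours, 9 in leg and 2 in wing discs, 0 for CG6272, sd and Stat92E against tumours, 9 for Stat92E and 0 for kay against controls, 0 among control discs and 1 between days. The leg libraries titled sd alone gave 18 for sd against controls. With Stat92E as the reference CG6272 gave 6, and the change of mRpL28 took the other sign, at 0.069 (CG6272 minus Stat92E, log2). With CG6272 as the reference Stat92E gave 6.

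Added after seeing the data, removal of the length trend gave 21 raised and 9 lowered in tumours, 14 in eye-antennal and 16 in leg discs, 6 for CG6272 against tumours, 25, 18, 9 and 3 for CG6272, sd, Stat92E and kay against controls and 6 between days. Without the day 9 tumours 0 were lowered, wing gave 1, and CG6272 and sd against tumours gave 0 and 1. Without the day 11 tumours 28 were raised and 3 lowered, eye-antennal gave 12 and leg 7, and CG6272, tai, Stat92E and kay against tumours gave 5, 1, 6 and 1. Without the 2 control libraries high in fat body markers 0 were lowered, eye-antennal gave 11, wing 6, kay against controls 0 and control discs 0. CG6272 leg replicate 2 alone gave 14 against controls. The cause was not tested, beyond the smaller number of libraries where some were left out.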
